A study of Homo sapiens with 6 samples.

Results

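The enzymes described here make serine from a glycolytic intermediate and pass its carbon into the folate cycle. They are 10 genes chosen by name from the table of raw counts, which holds 60107 Ensembl genes: PHGDH, PSAT1 and PSPH of serine synthesis, SHMT1, MTHFD1 and ALDH1L1 of the cytosolic folate cycle, and SHMT2, MTHFD2, MTHFD1L and ALDH1L2 of the mitochondrial one. Each matched 1 Ensembl ID, and all 10 passed the filter on low counts that left 22613 genes. RNA came from H9, an established human embryonic stem cell line, on day 9 of a differentiation that runs for 10 days and leads to nephron progenitors, the cells from which nephrons form. One group of 3 libraries was grown in complete medium, with glutamine, and the other group of 3 was deprived of glutamine from day 0 through day 9. Count columns headed day 0 were taken as the group with glutamine and those headed day 9 as the group without, as the sample descriptions pair them. H9 is a single cell line, and nothing in the labels says whether the libraries of a group came from separate cultures, so p-values measure the spread between these libraries only.

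Serine is made in the cytosol in a chain of reactions: PHGDH oxidises 3-phosphoglycerate, PSAT1 adds an amino group taken from glutamate, and PSPH removes the phosphate. Serine hydroxymethyltransferases, SHMT1 in the cytosol and SHMT2 in mitochondria, then split serine into glycine and a carbon unit carried by tetrahydrofolate. In mitochondria MTHFD2 and MTHFD1L oxidise that unit and release it as formate, which cytosolic MTHFD1 loads back onto folate for purine and thymidylate synthesis, while ALDH1L1 and ALDH1L2 oxidise it to carbon dioxide in the cytosol and the mitochondria. Glutamate, the amino donor of the PSAT1 reaction, is made from glutamine, and the transcription factor ATF4, which is switched on when amino acids run short, is known to induce several of these genes.

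Under glutamine deprivation 1 enzyme of serine synthesis and 2 of the mitochondrial folate cycle stood furthest above their levels in complete medium. PSAT1, MTHFD2 and ALDH1L2 lay higher in all 3 libraries without glutamine than in all 3 with it, by 1.41-fold, 1.43-fold and 2.27-fold, while PHGDH, MTHFD1 and MTHFD1L without glutamine stayed within the range of the libraries with it. With edgeR's quasi-likelihood test 0 of the 10 enzymes had a Benjamini-Hochberg adjusted p under 0.05, where 0.00442% of all genes tested did (1 gene of 22613). At an unadjusted p under 0.05 there were 6 of the 10, 5 higher and 1 lower, against 29.7% of all genes (14.7% higher and 15.0% lower). For 5 enzymes, PSAT1, PSPH, SHMT2, MTHFD2 and ALDH1L2, every library without glutamine was above every library with it, where 17.3% of all genes were higher without overlap, and 34.2% were apart in either direction. The median log2 fold change of the 10 was 0.20, and that of all genes tested was 0.00. With DESeq2 3 of the 10 had an adjusted p under 0.05, PSAT1, MTHFD2 and ALDH1L2, all higher, against 14.4% of its 21306 genes with an adjusted p (7.75% higher and 6.63% lower). With limma-voom it was 0 of the 10.

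The libraries held 78220507 to 84746566 counts. Replicate 1 with glutamine stood apart from its group: on a scale of log2 CPM (counts scaled to the size of the library) from the mean of the other libraries with glutamine (0) to the mean of those without (1), its median position was 0.74 over the 11628 genes with a gap of at least 0.3. Results are therefore also given without it, a fit in which 41.3% of 23164 genes had an adjusted p from edgeR under 0.05. That library was singled out by the same values that are tested, so p-values of this fit are a description and add no independent support. Nephron progenitor markers summed to 984 to 1670 CPM with glutamine and 1550 to 2070 CPM without over 13 genes. Among them WT1 was at 225 CPM or more in every library, whereas HOXD11 was at 0.542 CPM or less with glutamine and PAX2 was at 150, 17.0 and 12.9 CPM there. Summed levels of markers of other cell types also differed between libraries. The 4 endothelial markers summed to 27.4 to 87.6 CPM with glutamine and 16.0 to 21.5 without, mostly from KDR. The 7 primitive streak and somite markers summed to 61.1 to 196 and 64.5 to 84.1 CPM, with TBXT and MSGN1 under 1 CPM. The 5 neural markers gave 15.4 to 27.5 and 15.1 to 20.5 CPM with SOX1 and OTX2 under 1 CPM, the 4 stromal markers 451 to 637 and 499 to 732 CPM, and the 5 endoderm markers no more than 2.36 CPM. The 5 pluripotency markers reached 120 to 192 and 221 to 281 CPM, nearly all of it DPPA4, with POU5F1, NANOG and PRDM14 under 1 CPM. Their part in the values below was not tested, and in bulk RNA fewer cells of a type and less RNA per cell cannot be told apart.

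**Figure D1:**
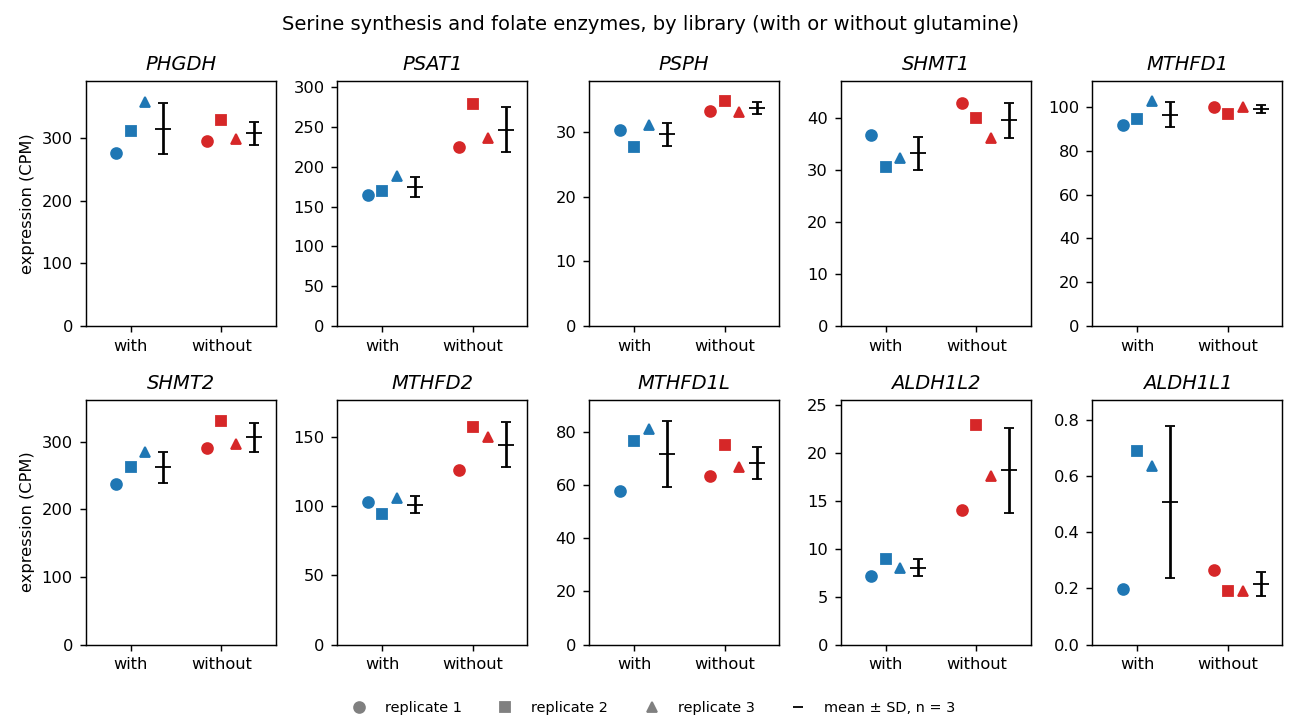
Expression of the 10 enzymes in each library, in CPM on axes that start at 0; symbols give the replicate, and the black bar beside each group is its mean ± SD (n = 3). The libraries without glutamine sit above all those with it for PSAT1, PSPH, SHMT2, MTHFD2 and ALDH1L2, and in ALDH1L1 replicate 1 with glutamine lies with the libraries without.

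Among the enzymes of serine synthesis the groups were apart for PSAT1 and PSPH and overlapped for PHGDH. PHGDH (ENSG00000092621, chromosome 1, 119648411 to 119744226, plus strand, in GENCODE 29 on GRCh38) catalyses the first and committed step. Replicates 1 to 3 read 276, 312 and 358 CPM when glutamine was present, and 296, 329 and 298 CPM when it was not. The latter fell entirely inside the range of the former. Its log2 fold change was -0.03 (± 0.11 SE, 95% interval -0.28 to 0.21, adjusted p 0.848 by edgeR). PSAT1 (ENSG00000135069, chromosome 9, 78297143 to 78330093, plus strand), the aminotransferase of the chain, was at 165, 170 and 189 CPM with glutamine and at 225, 279 and 236 CPM without. The lowest of the deprived libraries was above the highest of the others, and that gap was wider than the whole range with glutamine. The means were 175 ± 12.9 and 247 ± 28.1 CPM (SD, n = 3), a difference of 0.50 in log2 (± 0.10 SE, adjusted p 0.0689 by edgeR). Processed pseudogenes of PSAT1 held few counts, at most 8 in a library for PSAT1P3. PSPH (ENSG00000146733, chromosome 7, 56011051 to 56051604, minus strand), the phosphatase of the last step, was at 30.3, 27.6 and 31.0 CPM with glutamine and at 33.3, 34.7 and 33.0 CPM without. Its groups did not overlap, yet the log2 fold change was only 0.18 (± 0.08 SE, adjusted p 0.171 by edgeR).

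Replicate 1 with glutamine did not side with the libraries without glutamine in PSAT1: its position on the scale above was -0.27, on the far side of its own group. Without that library the log2 fold change of PSAT1 was 0.46 (adjusted p 0.00438 by edgeR), that of PSPH was 0.20 (adjusted p 0.0664 by edgeR) and that of PHGDH was -0.12 (adjusted p 0.278 by edgeR). PSAT1 alone of the 3 had an adjusted p under 0.05 in that fit.

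The promoter of PSAT1 is shown because the groups were apart for PSAT1 and overlapped for PHGDH of the same chain. The bases come from RefSeq on GRCh38.p14, written 5′ to 3′ on the gene's strand, and are the 250 before the RefSeq start site (chr9:78296875-78297124, plus strand). Capitals mark the stretch closest to TGATGNAA, the core of the C/EBP-ATF response element, the sequence that ATF4 binds with its partners.
PSAT1: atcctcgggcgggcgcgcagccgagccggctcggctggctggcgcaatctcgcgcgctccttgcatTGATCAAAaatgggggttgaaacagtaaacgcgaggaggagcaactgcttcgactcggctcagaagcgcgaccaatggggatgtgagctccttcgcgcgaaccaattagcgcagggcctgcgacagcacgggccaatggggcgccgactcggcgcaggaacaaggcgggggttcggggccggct
The marked stretch matched 6 of the 7 fixed letters, starting at position -184 from the start site, and 44.1% of all 35116 promoter windows, each of 250 bases before and 50 after a start, hold a stretch at least as close. No full match to TGATGNAA on either strand lay in the windows of PHGDH, PSAT1, SHMT1, MTHFD1, MTHFD2 or ALDH1L1, which says only that these letters are not in those windows. The table used has no window for PSPH, SHMT2 or ALDH1L2. The full matches of MTHFD1L and of 3 of the 4 genes of the other lists that held one are shown next, in 30 bases each, with the match in capitals. This sets an enzyme with overlapping groups beside genes of other lists whose groups were apart: SLC1A4 of serine transport, and the known ATF4 targets ASNS and CHAC1.
MTHFD1L: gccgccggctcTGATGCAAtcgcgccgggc
SLC1A4: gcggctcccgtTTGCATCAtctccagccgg
ASNS: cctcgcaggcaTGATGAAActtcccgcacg
CHAC1: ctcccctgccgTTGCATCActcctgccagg
They lie at chr6:150866346-150866375 (plus strand) for MTHFD1L, chr2:64989381-64989410 (plus strand) for SLC1A4, chr7:97872458-97872487 (minus strand) for ASNS and chr15:40953251-40953280 (plus strand) for CHAC1. The match in SLC1A4 and CHAC1 is on the strand opposite to the gene, so it reads as its reverse complement. SLC1A5, whose groups were also apart, is the gene not shown, and its full match, in 1 of its 3 windows, started at position -97 from that start site. MTHFD1L, SLC1A4 and ASNS likewise each had a window without a full match. The site in MTHFD1L lay at -129, 24 or -90, depending on the start site. By gene, 1 of the 7 enzymes with a window held TGATGNAA, where 4.46% of 27305 genes did. In the other lists 2 of 13 genes with a window held it for serine and glycine transport and use, and 2 of 9 for ATF4 and known targets. The counts were 0 of 10 for other folate genes, 0 of 6 for glycine cleavage and 0 of 9 for the methionine cycle. The E-box CACGTG, a palindrome bound by MYC and USF factors, was found for MTHFD1 and MTHFD1L, 2 of the 7, against 8.77% of all genes. MTHFD1L held both motifs and had overlapping groups. SLC1A4, ASNS and CHAC1, printed because their groups were apart, were higher without glutamine in all libraries (values below). So were PSAT1 and MTHFD2, whose windows held no full match to TGATGNAA. Any relation of these letters to the levels was not tested.

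In the mitochondrial folate cycle MTHFD2 and ALDH1L2 were furthest above the levels with glutamine. MTHFD2 (ENSG00000065911, chromosome 2, 74198562 to 74217565, plus strand) is the mitochondrial methylenetetrahydrofolate dehydrogenase and cyclohydrolase, abundant in embryonic and proliferating cells. It was at 103, 94.4 and 106 CPM with glutamine and at 126, 157 and 150 CPM without. The lowest library without glutamine exceeded the highest with it. From 101 ± 6.10 to 145 ± 16.2 CPM (SD, n = 3), the log2 fold change was 0.52 (± 0.10 SE, adjusted p 0.0682 by edgeR). Replicate 1 with glutamine was at position 0.07, beside its own group, and without it the log2 fold change was 0.53 (adjusted p 0.00244 by edgeR). ALDH1L2 (ENSG00000136010, chromosome 12, 105019784 to 105084577, minus strand), the mitochondrial 10-formyltetrahydrofolate dehydrogenase, had the highest fold change of the 10. ALDH1L2 was at 7.12, 8.92 and 7.99 CPM with glutamine and at 14.1, 22.9 and 17.6 CPM without, or 578 to 697 and 1215 to 1795 counts. The lowest library without glutamine stood above the highest with it by more than the whole range with glutamine. With means of 8.01 ± 0.901 and 18.2 ± 4.42 CPM (SD, n = 3), it differed by 1.18 in log2 (± 0.19 SE, adjusted p 0.0679 by edgeR) and ranked 109 by p-value among the 22613 genes. Replicate 1 with glutamine lay at -0.23, with its own group, and its removal gave 1.11 (adjusted p 0.000987 by edgeR). C12orf45 overlaps ALDH1L2 on the opposite strand and held 713 to 885 counts with glutamine and 634 to 683 without. The libraries were stranded, per the labels, but the counting strand is not given in the sources used here. Whether the counts keep the reads of such overlapping genes apart is therefore not known. Counts of C12orf45 were lower without glutamine, and those of ALDH1L2 higher.

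SHMT2 and MTHFD1L, which open and close the mitochondrial route from serine to formate, had smaller fold changes. SHMT2 (ENSG00000182199, chromosome 12, 57229327 to 57234935, plus strand), which takes the carbon unit from serine in mitochondria, was at 238, 263 and 285 CPM with glutamine and at 291, 331 and 297 CPM without. Its groups came close without overlapping, at 285 and 291 CPM, and the log2 fold change was 0.23 (± 0.09 SE, adjusted p 0.155 by edgeR). Without replicate 1 with glutamine it was 0.16 (adjusted p 0.122 by edgeR). NDUFA4L2, which overlaps SHMT2 on the other strand, held 123 to 228 counts with glutamine and 344 to 476 without, next to 19337 or more counts of SHMT2. MTHFD1L (ENSG00000120254, chromosome 6, 150865549 to 151101887, plus strand), the mitochondrial formate-releasing enzyme, was at 57.8, 76.6 and 81.0 CPM with glutamine and at 63.3, 75.1 and 66.9 CPM without. These ranges were nested, the libraries without glutamine all falling between the lowest and the highest with it. The log2 fold change of -0.07 (± 0.14 SE, 95% interval -0.39 to 0.25, adjusted p 0.760 by edgeR) became -0.20 without replicate 1 with glutamine (adjusted p 0.0836 by edgeR).

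Among the cytosolic enzymes none was above or below the other group in all libraries. MTHFD1 (ENSG00000100714, chromosome 14, 64388031 to 64463457, plus strand), a single protein with the dehydrogenase, cyclohydrolase and synthetase activities of the cytosol, had the smallest standard error of the 10. Its means were 96.6 ± 5.92 and 99.1 ± 2.07 CPM (SD, n = 3) with and without glutamine, from 7462, 7386 and 8114 counts with glutamine and 8640, 7582 and 7872 counts without. The levels without glutamine lay inside the range with it, with a log2 fold change of 0.04 (± 0.07 SE, 95% interval -0.13 to 0.20, adjusted p 0.746 by edgeR). ZBTB25 overlaps MTHFD1 on the other strand and held 1780 to 2372 counts with glutamine and 1947 to 2313 without. SHMT1 (ENSG00000176974, chromosome 17, 18327860 to 18363563, minus strand), the cytosolic hydroxymethyltransferase, was at 36.7, 30.5 and 32.3 CPM with glutamine and at 42.8, 39.9 and 36.1 CPM without. Replicate 1 with glutamine overlapped the lowest library without, at position 0.68. The log2 fold change of SHMT1 was 0.26 (± 0.10 SE, adjusted p 0.155 by edgeR), and without that library 0.34 (adjusted p 0.0129 by edgeR). SMCR8, which overlaps SHMT1 on the other strand, held 1877 to 1950 counts with glutamine and 1310 to 1767 without, of the same order as the 2381 to 3684 counts of SHMT1.

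ALDH1L1 (ENSG00000144908, chromosome 3, 126103562 to 126197994, minus strand), the cytosolic counterpart of ALDH1L2 and the rarest of the 10, had 16, 54 and 50 counts in replicates 1, 2 and 3 with glutamine and 23, 15 and 15 counts without. In CPM these were 0.197, 0.691 and 0.636 against 0.267, 0.191 and 0.191. Replicates 2 and 3 with glutamine were high, and replicate 1 lay with the libraries without, at position 1.07. The log2 fold change was -1.21 (± 0.49 SE, 95% interval -2.36 to -0.06, adjusted p 0.154 by edgeR), and without replicate 1 it was -1.60 (adjusted p 0.00109 by edgeR). The call for ALDH1L1 thus depended on 1 library, at counts of 54 or fewer.

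**Figure D2:**
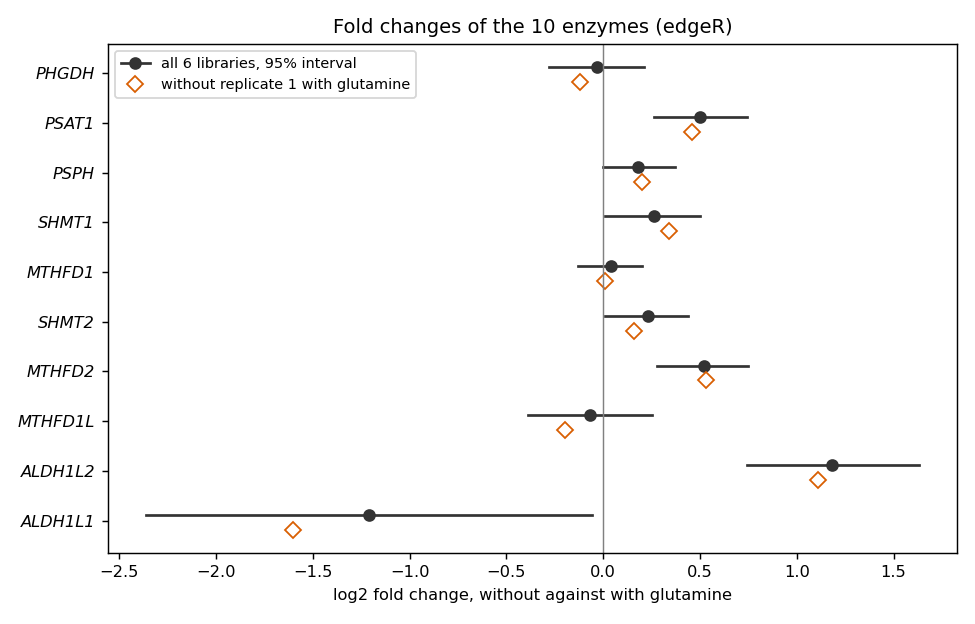
Log2 fold changes of the 10 enzymes, without against with glutamine, from edgeR: filled points and lines give the estimate and 95% interval from all 6 libraries, open diamonds the estimate without replicate 1 with glutamine. ALDH1L2 at 1.18, MTHFD2 at 0.52 and PSAT1 at 0.50 lie to the right of 0 with and without that library, and PHGDH, MTHFD1 and MTHFD1L straddle 0.

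Leaving out replicate 1 with glutamine, 5 of the 10 enzymes had an adjusted p from edgeR under 0.05, against 41.3% of all genes. PSAT1, SHMT1, MTHFD2 and ALDH1L2 were higher without glutamine, where 22.3% of all genes were called higher, and ALDH1L1 was lower, where 19.0% were. No other library, when left out, brought any of the 10 under the threshold, and neither did the replicate block. Across all 17 alternatives the log2 fold change ran from 0.41 to 0.56 for PSAT1, from 0.45 to 0.61 for MTHFD2 and from 0.99 to 1.34 for ALDH1L2.

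Levels can be compared between genes only per length, and CPM per kb of the principal GENCODE transcript is used for this. On that scale, as the mean of the 6 libraries, PHGDH stood at 120 (107 to 138), SHMT2 at 112 (93.9 to 131) and PSAT1 at 96.3 (75.2 to 127), and the ranges of these neighbours overlapped. A middle tier followed with MTHFD1 at 31.2 (29.3 to 32.9), MTHFD2 at 27.6 (21.2 to 35.3) and MTHFD1L at 19.4 (16.0 to 22.5). MTHFD2 overlapped both, and MTHFD1 lay above MTHFD1L in every library. SHMT1 at 14.8 (12.4 to 17.4) and PSPH at 14.5 (12.7 to 16.0) overlapped each other, and SHMT1 overlapped MTHFD1L above it. ALDH1L2 at 1.74 (0.944 to 3.04) and ALDH1L1 at 0.111 (0.0583 to 0.211) lay below every other enzyme and did not overlap each other. The order among the upper 8 depends on the gene length used: over the union of all annotated exons PHGDH, whose exon union is 9217 bases against 2585 in the principal transcript, was at 33.8 CPM per kb and below SHMT2 at 58.8.

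The balance between the mitochondrial and the cytosolic enzyme of each step was read within each library, as the log2 ratio of CPM per kb. This is a description without a test, since 3 libraries against 3 cannot give an exact permutation p under 0.10. SHMT2 exceeded SHMT1 in every library, by 6.30-fold to 8.58-fold, and the log2 ratios of the groups overlapped: 2.66, 3.07 and 3.10 with glutamine and 2.72, 3.01 and 3.0 without. In both groups replicate 1 had the lowest value. MTHFD1L to MTHFD1 was at -0.87, -0.51 and -0.55 with glutamine and -0.87, -0.57 and -0.78 without, with full overlap. By contrast MTHFD2 to MTHFD1 was at -0.35, -0.51 and -0.46 with glutamine and -0.18, 0.20 and 0.07 without, and the groups did not overlap. ALDH1L2 to ALDH1L1 was at 3.97, 2.49 and 2.45 with glutamine and 4.52, 5.70 and 5.32 without, also apart, with replicate 1 of each group nearest to the other group. The mean difference was 0.47 for MTHFD2 to MTHFD1 and 2.21 for ALDH1L2 to ALDH1L1. The size of a ratio, unlike its difference between groups, depends on the gene lengths: with the union of exons the mean log2 ratio over the 6 libraries was 0.41 in place of -0.69 for MTHFD1L to MTHFD1, and 1.25 in place of -0.20 for MTHFD2 to MTHFD1.

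**Figure D3:**
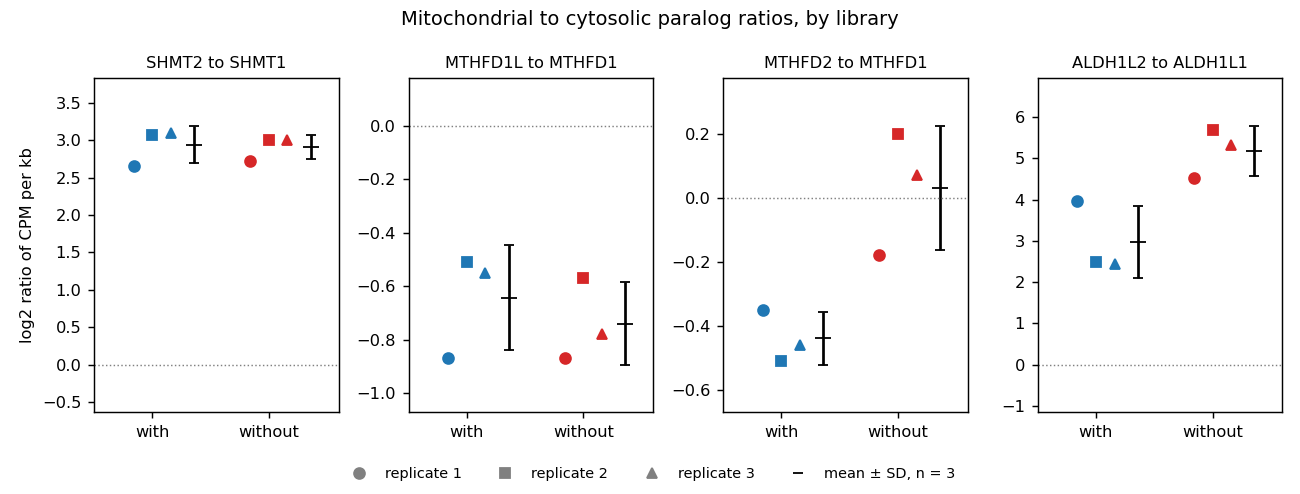
Log2 ratio of CPM per kb of each mitochondrial enzyme to its cytosolic counterpart in each library; symbols give the replicate, the black bar is the mean ± SD (n = 3), the dotted line marks equal levels, and the vertical scales differ between panels. The 2 groups separate for MTHFD2 to MTHFD1 and for ALDH1L2 to ALDH1L1, and overlap for SHMT2 to SHMT1 and MTHFD1L to MTHFD1.

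The rest of the pathway, and ATF4 with known targets, were followed in 57 genes of 5 lists. Of 16 other genes of the folate cycle and folate uptake, 0 had an adjusted p from edgeR under 0.05, 6 had an unadjusted p under 0.05 (29.7% of all genes), and DESeq2 called 3 (14.4% of all genes). Without replicate 1 with glutamine edgeR called 6 higher and 2 lower, where 22.3% and 19.0% of all genes were. In all 6 libraries the groups were apart for 5 genes above and 1 below, against 17.3% and 16.9% of all genes. The median log2 fold change of the list was 0.07. MTHFD2L, the mitochondrial relative of MTHFD2, was at 22.7, 22.4 and 19.9 CPM with glutamine and at 27.8, 29.5 and 29.5 CPM without, a log2 fold change of 0.42 (± 0.09 SE, adjusted p 0.0689 by edgeR). TYMS, the thymidylate synthase that consumes the methylene form of folate, had a log2 fold change of 0.37 (adjusted p 0.0810 by edgeR). Also higher in all libraries were GGH, a folate hydrolase, at 0.28, and MTFMT, which formylates the mitochondrial initiator tRNA, at 0.25. The purine synthesis enzymes that use formyl-folate differed in sign, GART at 0.14 and ATIC at -0.30, both with overlapping groups.

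Of the serine transporters, SLC1A4 had a fold change near that of ALDH1L2. SLC1A4, a transporter of serine and other small neutral amino acids, was at 12.7, 8.72 and 9.54 CPM with glutamine and at 17.8, 28.7 and 25.2 CPM without. Its groups did not overlap, with a log2 fold change of 1.21 (± 0.21 SE, adjusted p 0.0679 by edgeR). The related glutamine carrier SLC1A5 was at 71.0, 76.4 and 84.1 CPM with glutamine and at 99.7, 103 and 94.7 CPM without, a log2 fold change of 0.36 (adjusted p 0.0721 by edgeR). SFXN1, a carrier of serine into mitochondria, was at 133 to 140 CPM with glutamine and 133 to 143 without, a log2 fold change of 0.01. In SFXN3, a relative of SFXN1, replicate 1 with glutamine was the highest of all libraries, at 17.2 CPM against 13.0 to 15.7 CPM without glutamine and 8.54 and 8.87 CPM in the others of its group. In SFXN2, another relative, it lay among the libraries without: SFXN2 was at 57.7, 29.5 and 28.5 CPM with glutamine and at 60.7, 57.9 and 53.1 CPM without. Of the 15 genes of serine and glycine transport and use, 14 passed the filter, and 0 had an edgeR adjusted p under 0.05. At an unadjusted p under 0.05 there were 3 (29.7% of all genes), DESeq2 called 2 (14.4%), and the groups were apart for 4, all higher (17.3%). Without replicate 1 with glutamine edgeR called 5 of the 14, all higher (22.3% of all genes). The median log2 fold change was 0.05.

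Glycine cleavage is the mitochondrial system that takes a carbon unit from glycine, and its list also holds 2 enzymes of other methyl donors. AMT, its aminomethyltransferase, was at 50.0, 47.6 and 47.3 CPM with glutamine and at 38.2, 42.3 and 38.7 CPM without, a log2 fold change of -0.28 (± 0.07 SE, adjusted p 0.0810 by edgeR). SARDH, which releases a carbon unit from sarcosine, had a log2 fold change of -0.37 (adjusted p 0.115 by edgeR). AMT and SARDH were the 2 of 6 genes whose groups did not overlap, both lower. Of all genes, 16.9% were lower without overlap and 34.2% were apart in either direction. GLDC, the decarboxylase of the system, was at 23.7, 3.99 and 3.63 CPM with glutamine and at 21.8, 19.4 and 17.8 CPM without. Replicate 1 with glutamine was the highest of all 6 libraries. The log2 fold change of GLDC was 0.92 (± 0.68 SE, adjusted p 0.383 by edgeR), and 2.37 without that library (adjusted p 7.09e-07 by edgeR). Of the 6 genes 0 were called by edgeR, 2 had an unadjusted p under 0.05 (29.7% of all genes) and DESeq2 called 1 (14.4%). Without replicate 1 with glutamine edgeR called 1 higher and 2 lower, beside 22.3% and 19.0% of all genes.

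ATF4 itself was at 158, 153 and 167 CPM with glutamine and at 181, 211 and 210 CPM without, a log2 fold change of 0.33 (± 0.08 SE, adjusted p 0.0772 by edgeR), with no overlap between groups. Of 10 genes, ATF4 and known targets, 5 were higher without overlap and 0 lower (17.3% and 16.9% of all genes), edgeR called 1, SLC7A11, a cystine transporter (adjusted p 0.0488 by edgeR), and DESeq2 called 6, 4 higher and 2 lower (7.75% and 6.63% of all genes). Without replicate 1 with glutamine edgeR called 5 higher and 3 lower (22.3% and 19.0%). The median in all 6 libraries was 0.15. The targets went in different directions: CHAC1, which degrades glutathione, had a log2 fold change of 1.78 and ASNS, the asparagine synthetase, one of 0.89, while DDIT4 had -1.10 and VLDLR -0.78. In DDIT4 and VLDLR replicate 1 with glutamine lay with the libraries without. In ATF4 and ASNS, as in PSAT1, MTHFD2 and ALDH1L2, it lay with its own group. The groups were apart for each of these genes, which by itself keeps replicate 1 below every library without glutamine. Over the 11628 genes with a gap of at least 0.3, 31.1% had a position under 0.5.

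**Figure D4:**
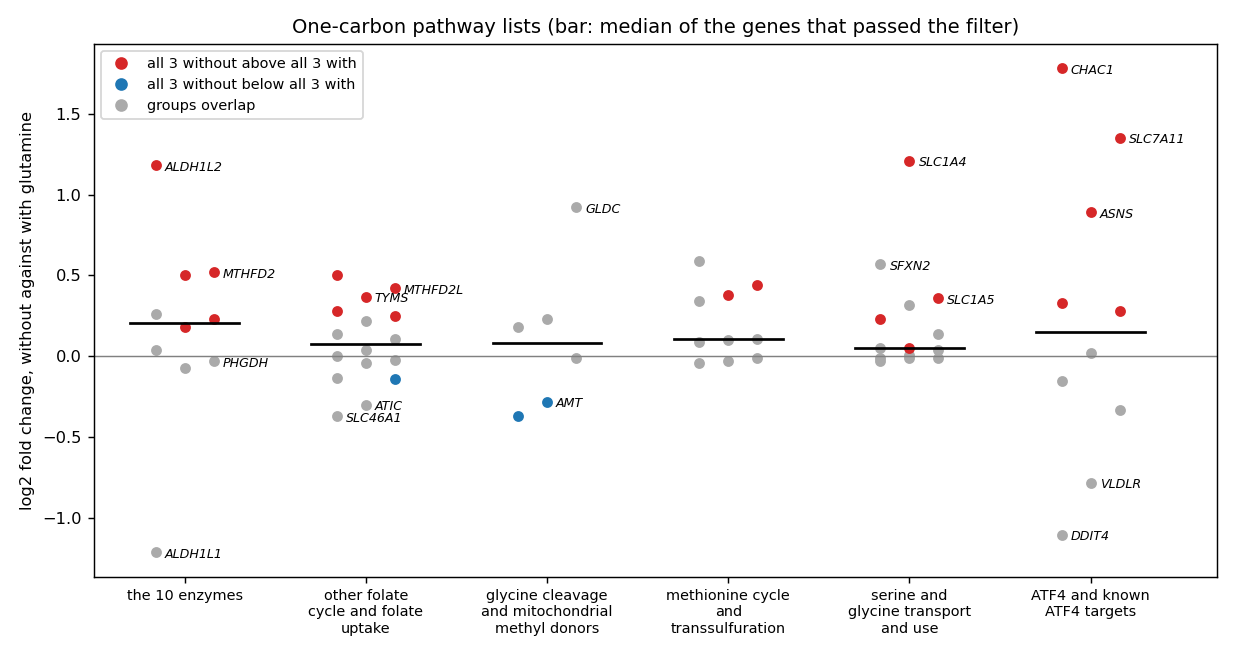
Log2 fold changes from edgeR of the 10 enzymes and of the 5 other lists, 1 point per gene that passed the filter; red and blue mark genes for which all 3 libraries without glutamine lay above or below all 3 with it, grey marks overlapping groups, and the bar is the list's median. The medians lie between 0.05 and 0.20, and single genes such as ALDH1L2, SLC1A4 and CHAC1 stand far above them.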

How the data were processed

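The authors deposited raw counts per Ensembl gene for 6 libraries (stranded mRNA libraries, single reads of 50 nt, per the labels). They also deposited counts divided by 1 size factor per library, a normalized signal here used in an alternative fit and in an alternative of the paralog ratios. The submitters' processing notes list STAR 2.5.2b, cutadapt, Trim Galore, FastQC, DESeq2 and GRCh38; the counting program, annotation and strand setting are not given in the sources used here. The column headings name days 0 and 9; each sample's description ties the day 0 headings to the libraries with glutamine, and every direction rests on this.

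Symbols, positions and lengths came from GENCODE 29 (56531 of 60107 IDs matched). Counts were tested with edgeR 4.0.16 in R 4.3.3: filterByExpr, TMM, the quasi-likelihood F test (legacy = FALSE), group only, and Benjamini-Hochberg adjustment over the 22613 genes kept, with a threshold of 0.05. The standard error was taken as the size of the log2 fold change over the root of its F statistic. CPM uses TMM-scaled library sizes. Alternatives were other scalings, filters and edgeR settings, DESeq2 1.42.0, limma 3.58.1, a replicate block and leaving out each library. The scripts were tested on simulated data with 200 genes changed. Of 100 genes changed by 1 in log2, DESeq2 recovered 78, edgeR 58 and limma-voom 56. False calls were 70 with DESeq2, 14 with edgeR and 15 with limma-voom. With nothing changed, DESeq2 called 41 of 22613 genes, and edgeR and limma-voom called 1 each.

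The members and lists were chosen with earlier results of these data known, so no list adds independent support. Named genes are the 10 enzymes, any gene of the lists, and for likeness the 5 genes best correlated with each of 2 mean profiles; some list genes are not reported here by name. No total, blank or summary row was present.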

Additional observations from a re-analysis of the deposited data

How the results depend on the processing

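The count of 1 gene called by edgeR was 0 under upper quartile scaling, library size only, limma-voom, legacy = TRUE and the replicate block, 2 with no filter and 2 with limma-trend, and 3065 of 21306 with DESeq2. Leaving out 1 library gave 0 to 9573 called genes, 9573 when replicate 1 with glutamine was dropped, 17 when replicate 1 of the deprived group was, and 0 in the remaining 4 fits. Of the 10 enzymes 0 were called, except 3 with DESeq2 and, over the fits that left out 1 library, 0 to 5, the 5 without replicate 1 with glutamine. The cause was not tested.

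Same-numbered libraries did not deviate together (correlations -0.02, 0.00 and 0.03), and with the replicate block 0 genes and 0 enzymes were called. The paralog ratios were given with no test, and no replicate block was run for them.

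Over 17 alternatives, 159 of 170 log2 fold changes of the enzymes had the same sign and the same call, 8 passed the threshold that had not, and 3 changed sign. These were PHGDH at 0.07 (range over fits that left out 1 library -0.12 to 0.07) and MTHFD1L at 0.02 (-0.20 to 0.02) without replicate 3 with glutamine, and MTHFD1 at -0.01 under upper quartile scaling, all near 0. The all-gene median shifted most under upper quartile scaling, by -0.043.

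Leaving out 1 library moved the difference in the ratio of SHMT2 to SHMT1, -0.03, to between -0.17 and 0.06 (0.03 and 0.05 without replicates 2 and 3 with glutamine, 0.06 without replicate 1 without glutamine). The range was 0.39 to 0.58 for MTHFD2 to MTHFD1, -0.21 to -0.03 for MTHFD1L to MTHFD1 and 1.95 to 2.71 for ALDH1L2 to ALDH1L1. With the union of exons as gene length, chosen after seeing the data, the mean log2 ratio changed sign for MTHFD1L to MTHFD1 (-0.69 to 0.41) and MTHFD2 to MTHFD1 (-0.20 to 1.25), and moved for SHMT2 to SHMT1 (3.56) and ALDH1L2 to ALDH1L1 (5.97). Of the 10 enzymes ALDH1L1, at 15 to 54 counts, was the most limited by depth.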

Other observations

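The methionine cycle, which receives its methyl group from folate, and the transsulfuration branch had a median log2 fold change of 0.11. Of 10 genes 0 were called by edgeR or DESeq2, and 0 had an unadjusted p under 0.05 (29.7% of all genes). The groups did not overlap for 2, MAT1A and GNMT, both higher and both under 2 CPM. Of all genes, 17.3% were higher without overlap and 34.2% were apart in either direction. Without replicate 1 with glutamine edgeR called 2, both higher, where 22.3% of all genes were: BHMT, which remethylates homocysteine from betaine, at 2.65 (adjusted p 0.00584 by edgeR) in place of 0.59, and CBS at 0.48 (adjusted p 0.0216 by edgeR). BHMT was at 0.801, 0.102 and 0.0509 CPM with glutamine and at 0.337, 0.357 and 0.777 CPM without. MTR, the methionine synthase, was at 186 to 205 CPM with glutamine and 188 to 207 without, and AHCY, which clears S-adenosylhomocysteine, had a log2 fold change of -0.04. With all 6 libraries the cystathionine genes of transsulfuration had log2 fold changes of 0.34 for CBS and -0.03 for CTH.

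Among 16872 genes with a mean of at least 50 counts, the profile most like the mean of PHGDH, PSAT1 and PSPH over the 6 libraries was that of PRELID1 (Pearson's r 0.9858), then POP4 (0.9816), TNFSF13 (0.9757), CTU2 (0.9741) and AC026740.1 (0.9736). For SHMT2, MTHFD2, MTHFD1L and ALDH1L2 it was CHN1 (0.9989), then SNRPF (0.9922), SERTAD4 (0.9908), PDIK1L (0.9872) and MAMDC2 (0.9860). With 6 libraries and this many genes, such values are a description. The enzymes averaged in a profile did not all vary together. PHGDH had r 0.23 with PSAT1 and 0.08 with PSPH, and PSAT1 had 0.90 with PSPH. MTHFD1L had r -0.04 with MTHFD2, 0.08 with ALDH1L2 and 0.47 with SHMT2, whereas pairs among MTHFD2, ALDH1L2 and SHMT2 had 0.83 to 0.95. Within the 10 enzymes r was 0.97 between PSAT1 and ALDH1L2 and 0.96 between PSAT1 and MTHFD2, while PHGDH went with MTHFD1L (0.93), and these too share the same 6 libraries.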
